A study of Mus musculus with 56 samples.

Results

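Expression of 9 genes of the Notch pathway was followed in mammary tumor cell lines: the receptors Notch1, Notch2, Notch3 and Notch4, the ligands Jag1, Jag2 and Dll1, and the targets Hes1 and Hey1. They were chosen by name from the 20314 genes of the deposited table, and all 9 passed the filter on low values (at least 1 CPM in at least 2 samples), as did 13754 genes in all. The lines came from mammary tumors of female FVB/N mice in which the MMTV promoter drove the polyoma middle T antigen (MMTV-PyMT), and all 7 carried this transgene. They differed in their β-catenin alleles. The fl/fl line had a floxed allele pair without a point mutation, and the lines D164A/fl, ΔC/fl and dm/fl had 1 mutant and 1 floxed allele. In D164A/-, ΔC/- and dm/- the floxed allele had been removed with a Cre-expressing adenovirus followed by a sort for GFP. The D164A change abolishes binding of β-catenin to its co-factors Bcl9 and Bcl9L. ΔC and dm are used here as the labels give them. Each line entered 2 experiments, 1 with Wnt3a (100 ng/ml, 3 days) and 1 with TGFβ (2 ng/ml, 4 days), each with its own untreated cells and 2 samples a condition, giving 28 conditions and 56 samples. Whether replicates were separate lines or separate cultures of 1 line was not stated, so p-values measure only the spread between these samples, and genotype and line cannot be told apart.

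Notch receptors are single-pass membrane proteins that are activated by ligands on neighboring cells. Ligand binding allows proteases to release the intracellular domain, which enters the nucleus, binds the DNA-binding protein Rbpj and turns on targets such as the repressors Hes1 and Hey1. In the mammary gland Notch signaling is known for its part in luminal cell fate, and Notch4 was found as a recurrent integration site of the mouse mammary tumor virus. TGFβ acts through SMAD proteins and induces epithelial-mesenchymal transition (EMT), whereas Wnt3a stabilizes β-catenin, which acts with TCF/LEF proteins.

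Libraries held 22396315 to 33681869 reads (median 26807970), so that 1 read was worth 0.0306 to 0.0486 CPM and the limit that a count of 0 allows (3 reads) was 0.0917 to 0.146 CPM, for counting error only. Replicates correlated at 0.833 to 0.995 across genes (median 0.981). Library pairs that stood apart were untreated dm/fl of the Wnt3a experiment (r = 0.833) and Wnt3a-treated dm/- (r = 0.896). In these pairs the rank correlation between the GC content of 9381 genes and their deviation from the mean of all libraries was 0.80 and -0.41, and -0.52 and 0.71, respectively. It ranged from -0.62 to 0.80 over all libraries. Other pairs of the Wnt3a experiment were split as well. Examples were untreated D164A/fl (-0.45 and 0.55), untreated D164A/- (-0.51 and 0.39), Wnt3a-treated D164A/- (-0.42 and 0.35) and untreated ΔC/fl (-0.46 and 0.61). The treatments were checked with Smad7, a TGFβ target that rose in 6 lines (log2 fold change 1.07 to 1.67) but did not pass in ΔC/fl (0.67), and Axin2, a Wnt target that rose after Wnt3a in 6 lines (2.84 to 5.98) but differed by 0.06 in dm/-. Of the other genes named as checks, Skil passed with TGFβ in none (0.15 to 1.52), and Lef1 passed with Wnt3a in none (-0.73 to 0.09). Epithelial identity was checked with luminal markers, whose summed CPM over 6 genes was 1134 to 8146, although 1 of them, Elf5, had a median of 0.371 CPM and was at 0 in its lowest sample. The endothelial genes Kdr, Tek, Tie1 and Emcn, the immune genes Ptprc, Cd3e and Adgre1, the pericyte genes Cspg4 and Kcnj8 and the fibroblast genes Thy1 and Lum were under 1 CPM in every sample. Other genes of these lists were not, with Csf1r reaching 529.7 and Cd68 79.4 CPM (immune, highest sum 533 CPM) and Pdgfrb 494, Pdgfra 302 and Col1a1 70.9 CPM (fibroblast, highest sum 743 CPM).

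Transcript levels of the members differed widely. Per kilobase of exon, the mean over all samples, treated and untreated, was highest for Jag1 (27.0 CPM per kb) and Notch2 (24.3), followed by Hes1 (19.4), Notch1 (13.5), Hey1 (9.59) and Dll1 (9.54). Jag2 (2.11), Notch3 (1.60) and Notch4 (0.762) were the lowest. The order of the medians differed, with Notch2 (23.5 CPM per kb) and Hes1 (18.2) above Jag1 (9.76), and Hey1 (0.449) below Jag2 (0.962) and Notch3 (0.729). Notch2 ranged from 117 to 604 CPM over the 56 samples and Hes1 from 11.1 to 62.7 CPM, the narrowest ranges relative to their level. Hey1 spanned the widest range, from 0 to 285 CPM, and was at or under 3 reads in 9 libraries. Jag2 (0.0615 to 93.2 CPM) was at or under 3 reads in 3 libraries. Jag1 ranged from 7.14 to 860.2 CPM, Notch1 from 7.29 to 627 CPM, Notch3 from 0.368 to 90.5 CPM, Notch4 from 0.142 to 31.3 CPM and Dll1 from 2.17 to 192 CPM. In bulk RNA, fewer cells with a transcript and less transcript per cell cannot be told apart.

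**Figure D1:**
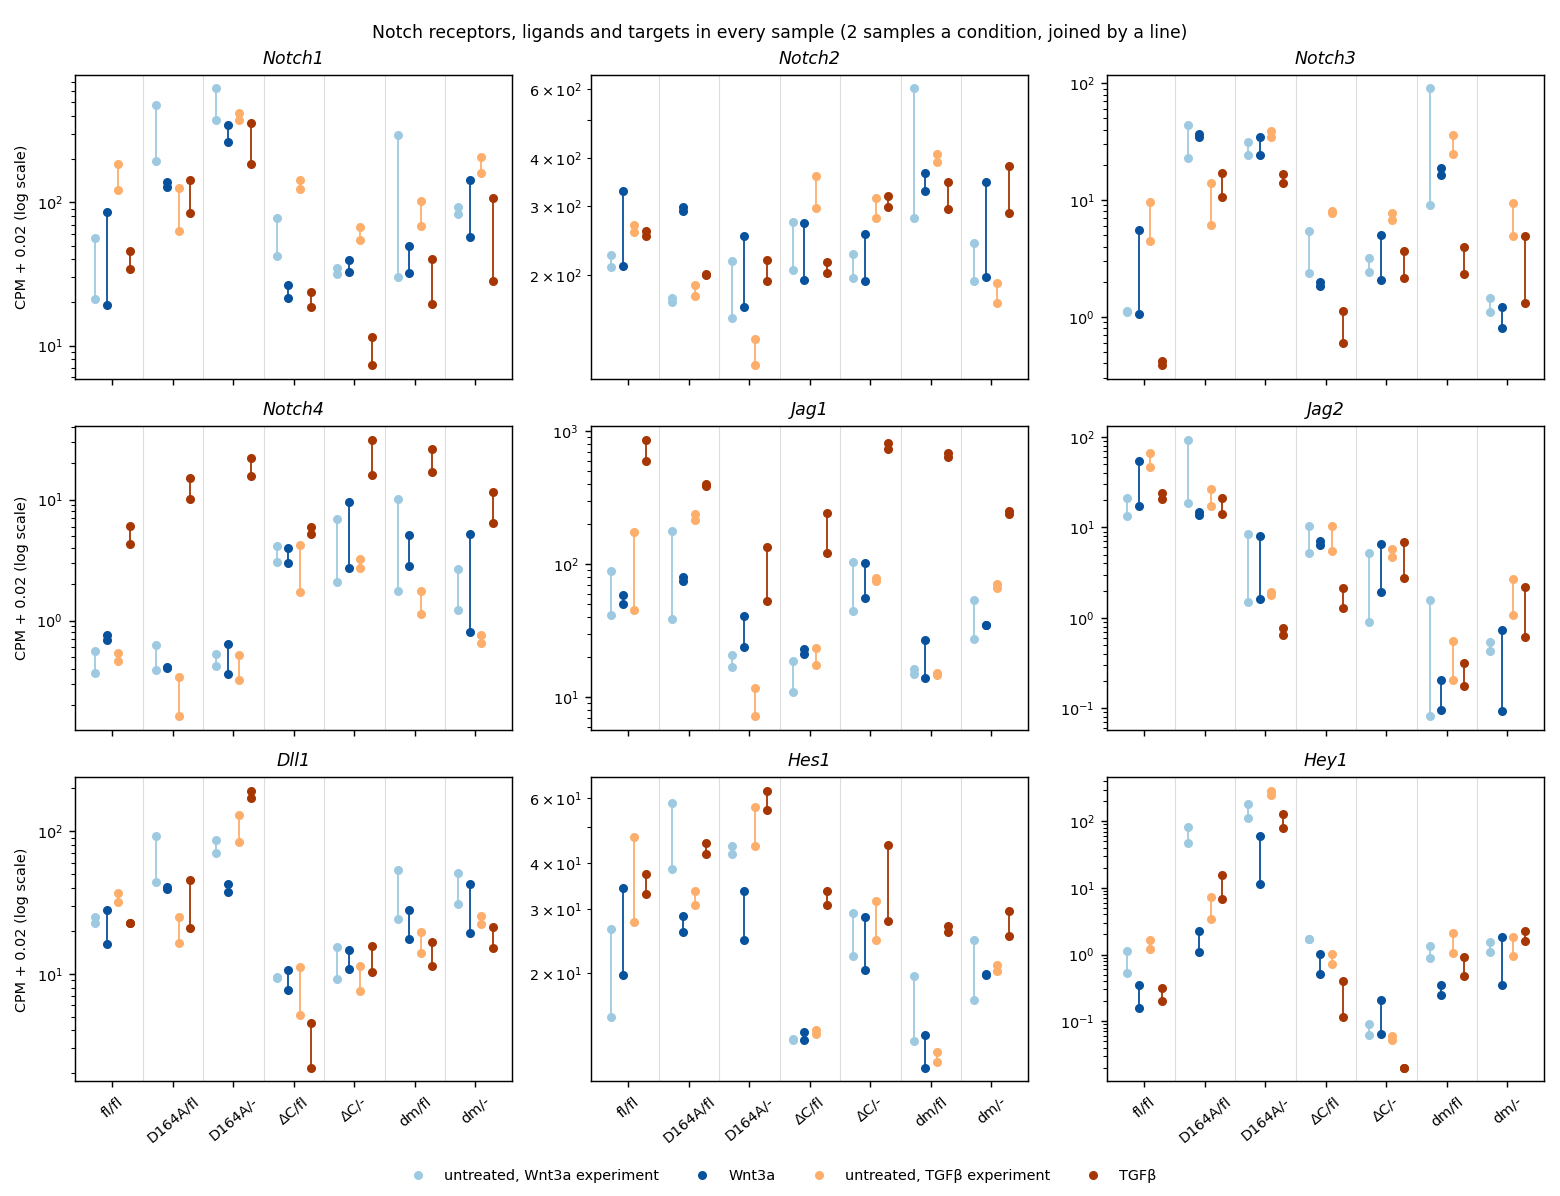
Level of each of the 9 genes in every sample, as CPM + 0.02 on a log axis of its own for each gene, for the 7 lines with and without TGFβ and with and without Wnt3a (points, single samples, joined by a line within a condition). Hey1 sits highest in D164A/- and near 0 in ΔC/-, Notch4 and Jag1 sit higher with TGFβ in every line, and Notch2 lies between 117 and 604 CPM throughout.

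The 4 genes whose mean response to TGFβ passed the thresholds were Jag1 and Notch4, which rose, and Notch1 and Notch3, which fell, and their upstream sequences are shown for that reason. RefSeq promoter windows (250 bases before the start, GRCm38.p6) were found for 7 of the 9 members, those other than Hes1 and Hey1, with 2 windows for Dll1. Each stretch below runs 5′ to 3′ on the strand of the gene and ends before the first exon base of GENCODE vM21 and before the RefSeq span of the gene. Capitals mark the SMAD box, CAGAC or GTCTG, a short sequence that SMAD proteins can bind. The Jag1 stretch lies at chr2:137116645-137116770 (minus strand), Notch4 at chr17:34564045-34564267 (plus strand), Notch1 at chr2:26503825-26504072 (minus strand) and Notch3 at chr17:32166897-32167140 (minus strand).
Jag1: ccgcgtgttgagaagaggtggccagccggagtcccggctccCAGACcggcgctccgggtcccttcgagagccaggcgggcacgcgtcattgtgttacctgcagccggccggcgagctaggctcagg
Notch4: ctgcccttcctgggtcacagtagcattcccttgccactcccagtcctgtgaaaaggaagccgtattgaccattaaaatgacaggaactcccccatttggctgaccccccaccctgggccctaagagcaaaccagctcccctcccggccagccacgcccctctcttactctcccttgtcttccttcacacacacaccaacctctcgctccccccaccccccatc
Notch1: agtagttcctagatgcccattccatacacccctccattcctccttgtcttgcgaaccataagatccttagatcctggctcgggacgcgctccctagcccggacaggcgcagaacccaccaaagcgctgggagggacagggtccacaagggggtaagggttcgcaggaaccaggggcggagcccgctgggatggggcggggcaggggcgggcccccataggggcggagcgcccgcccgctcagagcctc
Notch3: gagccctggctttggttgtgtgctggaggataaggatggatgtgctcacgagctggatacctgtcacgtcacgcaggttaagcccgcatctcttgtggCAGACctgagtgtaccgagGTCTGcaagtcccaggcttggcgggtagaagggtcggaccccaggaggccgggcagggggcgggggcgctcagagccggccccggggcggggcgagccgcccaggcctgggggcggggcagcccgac
The SMAD box was present 209 bases before the start of Jag1, a gene that rose, and 152 and 133 bases before the start of Notch3, a gene that fell. Dll1 held it as well, 122 bases before one start and 147 and 88 bases before the other. These 3 of 7 members compare with 42.2% of 32851 promoter windows of the same length. The core letters bound by Rbpj (TGGGAA or TTCCCA, in 21.6% of windows) and by TCF/LEF proteins (CTTTGA or TCAAAG, in 13.8%) were not in these windows of the 7 members. Both strands were searched, and no searched motif overlaps another in these matches. Matches describe the letters only.

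After 4 days of TGFβ, Jag1 and Notch4 rose and Notch1 and Notch3 fell on average over the 7 lines, whereas Notch2, Jag2, Dll1, Hes1 and Hey1 did not pass. A gene passed where the limma adjusted p was at most 0.05 and the log2 fold change of CPM + 1 was at least 1 in size, a scale that understates changes of low genes. These 4 of 9 members compare with 4.88% of all tested genes in the mean response. In the single lines members passed in 19 of 63 tests, where 6.35% of all gene tests did. By line, 4 of 9 members passed in ΔC/fl (7.74% of genes) and dm/fl (10.3%), 3 in fl/fl (6.25%) and ΔC/- (6.55%), 2 in D164A/- (4.06%) and dm/- (6.12%), and 1 in D164A/fl (3.38%).

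Jag1, a Jagged-type Notch ligand, had the largest mean increase on the scale of CPM + 1, whereas with edgeR on whole reads that of Notch4 was larger (3.73 against 2.95). In fl/fl it was at 175 and 45.3 CPM without and 860.2 and 589.9 CPM with TGFβ. In dm/fl it moved from 14.5 and 15.2 to 637 and 685 CPM. All treated samples were above all untreated samples in each of these lines. The same held in ΔC/fl (23.2 and 17.4 against 243 and 121 CPM), ΔC/- (79.1 and 75.1 against 807 and 730.1 CPM) and dm/- (70.2 and 65.9 against 239 and 249 CPM). D164A/- started lowest, at 7.14 and 11.7 CPM, and reached 52.5 and 135 CPM. D164A/fl started highest, at 214 and 236 CPM, and reached 384 and 399 CPM. The mean log2 fold change was 2.91 (SE 0.21, limma adjusted p = 6.63e-13), with 7 of 7 lines higher. It passed in 6 lines, from 1.83 in dm/- (SE 0.55, adjusted p = 0.0329) to 5.38 in dm/fl (SE 0.55, adjusted p = 5.63e-09). In D164A/fl it was 0.80 (adjusted p = 0.61). Of all tested genes, 0.364% passed as higher in at least 6 lines. The dm/- call was lost without any 1 of its 4 TGFβ-experiment libraries, with adjusted p of 0.127 to 0.194.

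Notch4, the shortest of the receptors in exon length, was under 1 CPM in the untreated cells of 4 lines in the TGFβ experiment and rose in 6 lines. In D164A/fl it was at 0.142 and 0.322 CPM without and 10 and 15 CPM with TGFβ, and in D164A/- at 0.502 and 0.305 against 22.1 and 15.7 CPM. In dm/fl it moved from 1.12 and 1.75 to 17 and 26 CPM, and in ΔC/- from 2.72 and 3.24 to 15.9 and 31.3 CPM. Treated and untreated samples did not overlap in these lines. The remaining lines ended lower, with 4.26 and 6.03 CPM in treated fl/fl (untreated 0.443 and 0.524), 6.44 and 11.5 CPM in treated dm/- (untreated 0.733 and 0.636) and 5.16 and 5.87 CPM in treated ΔC/fl (untreated 1.72 and 4.22). The mean log2 fold change was 2.62 (SE 0.20, limma adjusted p = 2.15e-12), higher in 7 of 7 lines. It passed in every line but ΔC/fl (0.79, adjusted p = 0.5) and was largest in D164A/- (3.81, SE 0.52, adjusted p = 3.44e-06). Notch4 stands on a list that the study drew up from these samples, so its direction is not independent evidence. The fl/fl call (2.04, SE 0.52, adjusted p = 0.00898) was lost without treated replicate 2 or either untreated replicate (0.0578 to 0.132), the ΔC/- call (2.56) without treated replicate 2 (2.09, adjusted p = 0.0557) and the dm/- call (2.52) likewise (2.14, adjusted p = 0.0506).

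Notch4 is known as an endothelial receptor, so endothelial markers were read beside it. Their sum over 6 genes was 0.0952 to 0.686 CPM in untreated cells of the TGFβ experiment. With TGFβ it was 0.0992 to 3.72 CPM in 6 lines and 34.1 and 35.2 CPM in dm/fl, where Cdh5 (VE-cadherin) reached 35.0 CPM while Kdr, Tek, Tie1 and Emcn stayed under 1 CPM. Treated sums were also above untreated ones in fl/fl (2.93 and 3.72 against 0.187 and 0.282 CPM). The same held at lower values in ΔC/fl (0.875 and 1.40 against 0.0952 and 0.320 CPM) and ΔC/- (0.579 and 0.711 against 0.126 and 0.311 CPM). In D164A/-, where the Notch4 log2 fold change of CPM + 1 was largest but its rise in CPM was not, the treated sums (0.176 and 0.330 CPM) were below the untreated ones (0.579 and 0.686 CPM). In D164A/fl and dm/- the sums overlapped. The part of endothelial genes in the Notch4 result was not tested.

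Notch1, the receptor most often linked to mammary tumorigenesis, fell by 1.52 on the log2 scale on average (SE 0.27, limma adjusted p = 3.24e-05) and was lower in 6 of 7 lines. The decrease was steepest in ΔC/-, from 54.4 and 67 to 7.29 and 11.5 CPM, and in ΔC/fl, from 123 and 143 to 18.6 and 23.8 CPM. Both passed, at log2 fold changes of -2.59 (SE 0.70, adjusted p = 0.0148) and -2.60 (SE 0.70, adjusted p = 0.0122). In fl/fl Notch1 was at 184 and 122 CPM without and 34.3 and 45.9 CPM with TGFβ, again without overlap, but did not pass (-1.89, adjusted p = 0.119), and passed without either untreated dm/fl library of the Wnt3a experiment (adjusted p = 0.0352 in both fits). D164A/fl overlapped, with 63.6 and 127 against 84.4 and 144 CPM. The ΔC/- call was lost without any 1 of its 4 libraries (adjusted p 0.0548 to 0.139) and the ΔC/fl call without treated replicate 1 or either untreated replicate (0.058 to 0.127).

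Notch3, a receptor best known from vascular smooth muscle, fell by 1.52 on average (SE 0.23, limma adjusted p = 3.82e-06) and was lower in 6 of 7 lines. In dm/fl it was at 24.6 and 36.1 CPM without and 2.31 and 3.98 CPM with TGFβ (log2 fold change -2.93, SE 0.61, adjusted p = 0.000724). In fl/fl it moved from 9.7 and 4.42 to 0.399 and 0.368 CPM (-2.46, SE 0.61, adjusted p = 0.00696), and in ΔC/fl from 7.76 and 8.13 to 0.584 and 1.11 CPM (-2.29, SE 0.61, adjusted p = 0.011). Groups did not overlap in these 3 lines, and treated cells were near or under 1 CPM in the last 2. D164A/fl went the other way without passing, at 6.12 and 14.1 against 10.7 and 16.9 CPM. The fl/fl call was lost without either treated replicate (-2.48, 0.0541 and -2.44, 0.0632) or untreated replicate 1 (-1.97, adjusted p = 0.175), and the ΔC/fl call without treated replicate 1 or either untreated replicate (0.0632 to 0.134). Of the pericyte genes, which mark the cells Notch3 is known from, the sum over 5 genes was at most 4.43 CPM in any sample.

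Notch2, the most abundant receptor per length in most lines, had a mean log2 fold change of 0.11 (95% interval -0.10 to 0.32, limma adjusted p = 0.498). It was at 269 and 258 CPM without and 259 and 252 CPM with TGFβ in fl/fl. In dm/- it was higher with TGFβ (190.3 and 169.8 against 381 and 288 CPM) at a log2 fold change of 0.88, which had an adjusted p of 0.043 but was under the fold threshold.

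The other ligands had no passing change. Jag2, a ligand of the same class, had a mean log2 fold change of -0.66 (SE 0.25, limma adjusted p = 0.0471), under the fold threshold, with values of 66.4 and 46.5 against 20.7 and 24 CPM in fl/fl and lower means in 7 of 7 lines. With edgeR its adjusted p was 0.0679. Dll1, a Delta-type ligand, averaged -0.07 (95% interval -0.40 to 0.27). Its levels were 84.5 and 131 without and 192 and 170.2 CPM with TGFβ in D164A/-, and 5.08 and 11.1 against 4.52 and 2.17 CPM in ΔC/fl, and neither passed (0.78 and -1.03).

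Hes1, a target that represses differentiation genes, was higher in 6 of 7 lines, with a mean log2 fold change of 0.51 (SE 0.11, limma adjusted p = 0.000388), under the fold threshold. It passed in ΔC/fl, from 14 and 13.6 to 33.5 and 30.8 CPM (1.16, SE 0.29, adjusted p = 0.00568), and in dm/fl, from 11.5 and 12.2 to 25.9 and 27 CPM (1.1, SE 0.29, adjusted p = 0.00704), the lines with the lowest untreated Hes1. Each of these calls was lost without either of 2 of its libraries, at adjusted p of 0.0503 and 0.0739 in ΔC/fl (untreated replicate 2, treated replicate 1) and 0.0729 and 0.0629 in dm/fl (untreated replicate 1, treated replicate 2).

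Hey1, a related repressor, averaged -0.34 (95% interval -0.69 to 0.02, limma adjusted p = 0.15). In D164A/-, the line with the most Hey1, it was at 285 and 245 CPM without and 129 and 79.4 CPM with TGFβ, a difference without overlap that did not pass (-1.38, adjusted p = 0.079). It passed at the same fold without either Wnt3a-treated D164A/- library (adjusted p 0.0139 and 0.0141), and the F test among lines then passed for Hey1 as well (0.0115 and 0.0117). In D164A/fl it was at 3.43 and 7.33 against 6.9 and 15.5 CPM. ΔC/- held 1 read in each untreated and 0 in each treated library. With edgeR on whole reads, which weighs low counts differently, the mean was -1.20 (adjusted p = 0.0445).

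**Figure D2:**
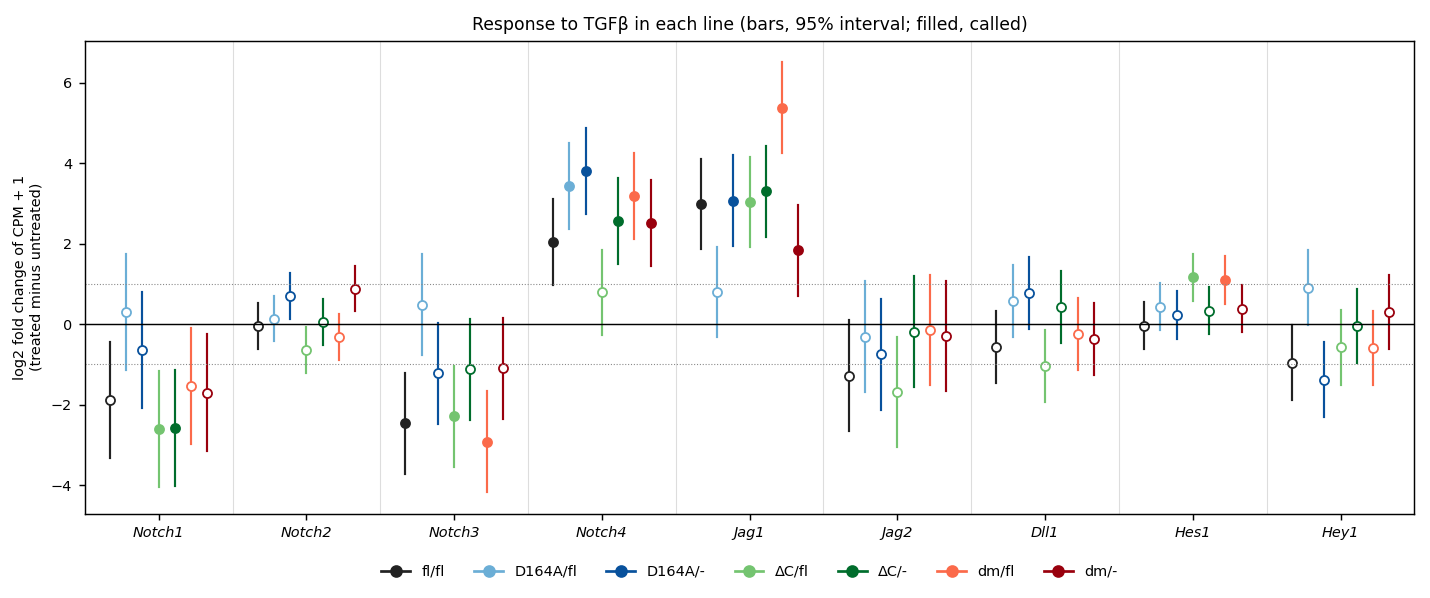
Response to TGFβ as log2 fold change of CPM + 1 (treated minus untreated) for each gene and line, with 95% intervals from limma and filled points where the thresholds were passed. Notch4 and Jag1 lie above 0 in 7 of 7 lines and pass in 6, Notch1 and Notch3 lie below 0 in 6, and the Jag1 point of dm/fl is the highest at 5.38.

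The size of the TGFβ response differed among the 7 lines for 4 members in limma's F test of the interaction, which called 18.3% of all genes. These were Jag1 (adjusted p = 0.00164), Notch2 (0.0357), Notch4 (0.0358) and Notch3 (0.0491). Jag1 ranged from 0.80 in D164A/fl to 5.38 in dm/fl and passed in each fit that left out 1 library. The other 3 were lost in 12 (Notch2), 11 (Notch4) and 41 (Notch3) of 56 such fits, with adjusted p up to 0.113, 0.191 and 0.229.

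Per exon length, these changes altered the make-up of the receptor and ligand transcripts. Jag1 made up 44.1% of the summed CPM per kb of the 3 ligands in untreated fl/fl and 92.1% in treated fl/fl, and 36.1% and 96.8% in dm/fl. In D164A/- Dll1 was the main ligand without TGFβ (93.6%) and with it (75.6%), while Jag1 went from 5.19% to 24.2%. Among the 4 receptors Notch2 went from 59.9% to 82.8% in fl/fl and Notch1 from 37.9% to 14.4%, but in untreated fl/fl of the Wnt3a experiment Notch2 already held 83.4% and Notch1 15.7%. D164A/- was the line with the highest Notch1 share, 71.6% without and 52.7% with TGFβ. Notch4 reached its highest share, 10.2%, in treated ΔC/- (1.25% untreated). In D164A/fl the Notch1 share was 34.1% and 34.0%. These shares are means of 2 samples and were not tested.

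**Figure D3:**
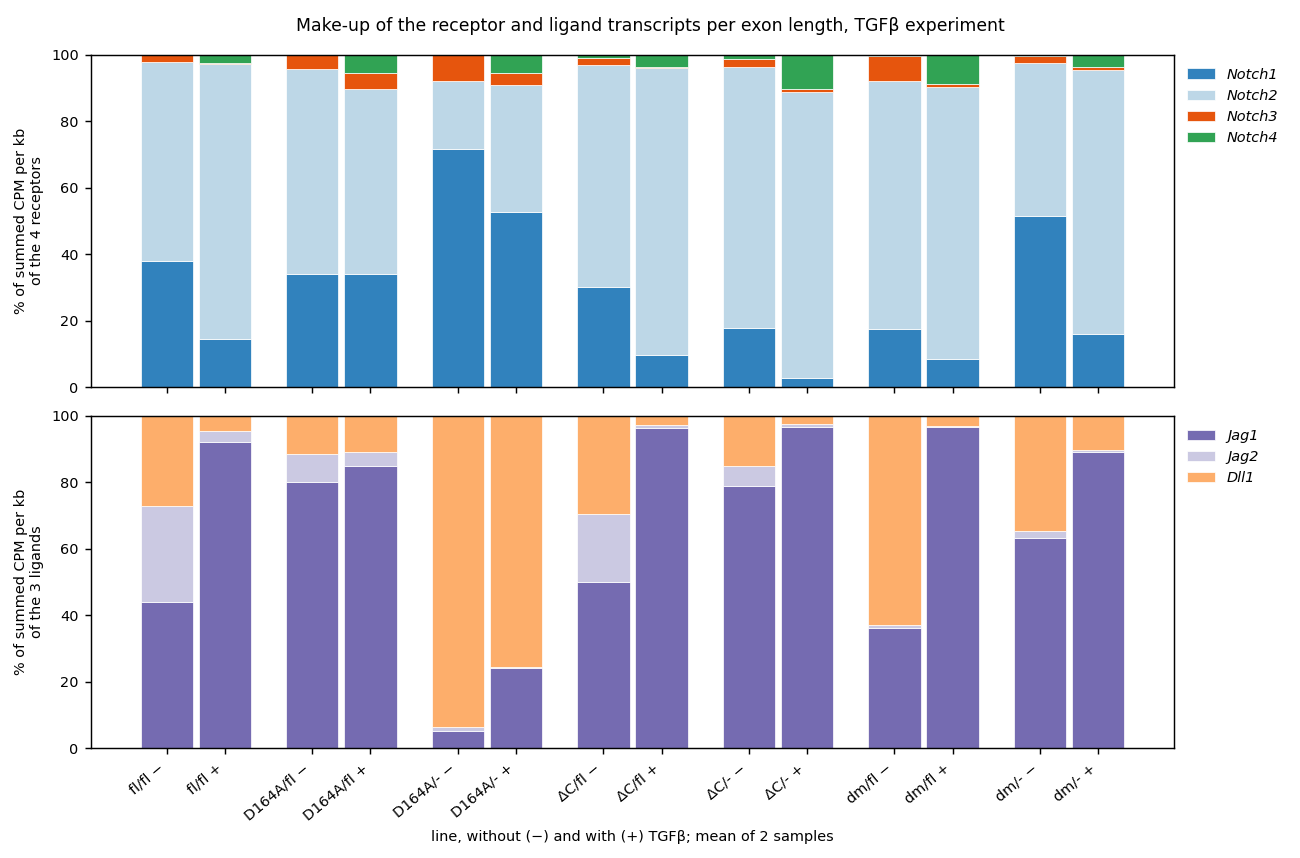
Make-up of the receptor (top) and ligand (bottom) transcripts as percent of the summed CPM per kb of exon, for each line without and with TGFβ (means of 2 samples, stacked to 100%). Jag1 takes at least 84.9% of the ligand sum in every treated line other than D164A/-, where Dll1 holds 75.6%. In D164A/fl Jag1 already holds 80.1% without TGFβ.

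A sum of mesenchymal genes moved with TGFβ alongside these members. Its largest gene was Fn1, which reached 63940 CPM, against 3957 for Vim, 254 for Cdh2, 206 for Zeb1 and 133 for Zeb2. The sum therefore does not show that each of these genes moved. The summed CPM of Vim, Fn1, Cdh2, Zeb1 and Zeb2 was 3715 and 7950 without and 30600 and 39090 with TGFβ in fl/fl, and 436.5 and 603.2 against 3883 and 8692 in D164A/-. In dm/fl, where the Jag1 log2 fold change was largest, the sums were 3743 and 5329 against 4581 and 8925. The sums did not overlap in the 6 lines other than dm/fl. Their part in the Notch results was not tested.

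Wnt3a for 3 days left 8 of the 9 members without a passing change in any line, and Hey1 fell in the D164A/fl and D164A/- lines. Members passed in 2 of 63 tests in single lines, where 0.862% of all gene tests did, and Hey1 alone passed in the mean response, where 0.494% of genes did. The 2 single-line calls were in D164A/fl, where 4.15% of genes passed, and D164A/- (0.654%). No member passed in fl/fl (0.378% of genes), ΔC/fl (0.225%), ΔC/- (0.0509%), dm/fl (0.574%) or dm/-, where limma passed 0 of all genes (29 at an unadjusted p under 0.05) and edgeR 0 (39). Hey1 was at 47.1 and 83.5 CPM in untreated and 2.26 and 1.09 CPM in treated D164A/fl, without overlap (log2 fold change -4.61, SE 0.45, limma adjusted p = 2.81e-09). In D164A/- it was at 181 and 112 against 60.1 and 11.6 CPM (-2.37, SE 0.45, adjusted p = 0.00295). The mean over the lines was -1.29 (SE 0.17, adjusted p = 3.4e-06), with 6 of 7 lines lower, and the response differed among lines (F test, adjusted p = 2.26e-05, where 2.39% of genes passed). In the lines other than these the untreated level was under 2 CPM, and ΔC/- held 1 and 2 reads without and 5 and 1 with Wnt3a.

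The D164A/- call rested on single libraries. It was lost without untreated replicate 1 (-2.02, adjusted p = 0.174) and without treated replicate 2 (-1.23, adjusted p = 0.926), and with edgeR on whole reads (-2.03, adjusted p = 0.47), where the F test of Hey1 gave an adjusted p of 0.0969. The untreated D164A/fl cells of the Wnt3a experiment differed from those of the TGFβ experiment, in which Hey1 was at 3.43 and 7.33 CPM, against 2.26 and 1.09 CPM in the treated cells of the Wnt3a experiment, values set side by side across experiments with no test. Summed basal markers were at 288.1 and 669 CPM in untreated D164A/fl of the TGFβ experiment and 1016 and 3622 CPM in those of the Wnt3a experiment. With Wnt3a the basal sum was 2953 and 3932 CPM, overlapping the untreated cells of that experiment. The summed mesenchymal genes were at 5322 and 5487, 1529 and 2265, and 2496 and 2697 CPM in the same order. In the untreated cells of the Wnt3a experiment Hey1 was highest and the mesenchymal sum lowest, each without overlap with the other groups. The basal sum was lowest in the untreated cells of the TGFβ experiment. The part of either sum in the Hey1 result was not tested.

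Among the other members, the mean log2 fold change to Wnt3a lay between -0.56 (Notch1, 95% interval -1.11 to -0.02, limma adjusted p = 0.43) and 0.19 (Jag1, 95% interval -0.23 to 0.62). Notch2 averaged 0.18, Notch4 0.07, Notch3 -0.05, Jag2 -0.14, Hes1 -0.21 and Dll1 -0.41. A member without a passing change in a single line can still have changed within its 95% interval. In dm/fl Notch1 was at 295 and 30.3 CPM without and 49.9 and 31.9 CPM with Wnt3a, and Notch3 at 90.5 and 9.1 against 18.9 and 16.3 CPM, the untreated pair being the one that stood apart. Without untreated replicate 2 of dm/fl, Notch1 (-2.85, adjusted p = 0.00238), Notch3 (-2.30, adjusted p = 0.00234) and Dll1 (-1.23, adjusted p = 0.044) passed there, in a fit whose lone untreated sample was the library with the highest GC correlation and was assumed to vary like the other groups. Without untreated replicate 1 instead, the values were 0.39, 0.88 and -0.13 and did not pass (adjusted p = 1 for each), so the direction turned for Notch1 and Notch3. Without D164A/fl untreated replicate 1, Jag2 passed in D164A/fl (-2.61, adjusted p = 0.0411), where it was at 18.5 and 93.2 against 13.9 and 14.9 CPM.

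**Figure D4:**
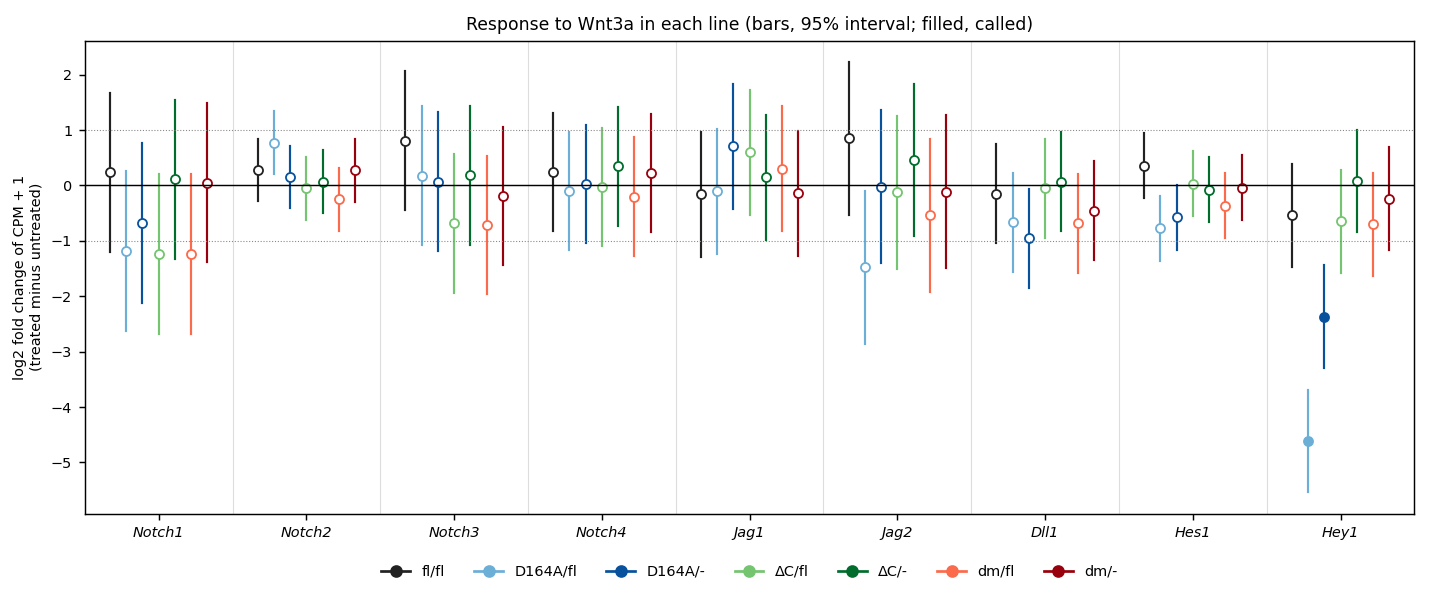
Response to Wnt3a as log2 fold change of CPM + 1 (treated minus untreated) for each gene and line, with 95% intervals from limma and filled points where the thresholds were passed. Only the Hey1 points of D164A/fl (-4.61) and D164A/- (-2.37) are filled.

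Without treatment, each mutant line was compared with fl/fl. Over these comparisons, with 4 untreated samples a line over both experiments, members passed in 20 of 54 tests, where 18.9% of all gene tests did. D164A/- had the most, with 6 of 9 members (18.9% of genes in that comparison), and dm/- the fewest, with 1 (17.9%). For D164A/fl it was 2 (16.2%), for ΔC/fl 4 (16.6%), for ΔC/- 3 (23%) and for dm/fl 4 (21.1%). The order of levels below is by mean, with neighbors called apart where their 4 samples did not overlap.

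Hey1 separated the lines most. Its mean was 206 ± 76.0 CPM (SD, n = 4, range 112 to 285) in D164A/-, 35.3 ± 37.7 (3.43 to 83.5) in D164A/fl, and 1.34 ± 0.391, 1.33 ± 0.536, 1.27 ± 0.506 and 1.11 ± 0.456 in dm/-, dm/fl, ΔC/fl and fl/fl. ΔC/- was lowest at 0.0453 ± 0.0166 CPM, 1 to 2 reads a library. D164A/-, D164A/fl, the middle 4 lines and ΔC/- did not overlap with each other, and the middle 4 did. Against fl/fl, Hey1 was higher by 6.56 in D164A/- (SE 0.32, limma adjusted p = 8.7e-18) and by 3.25 in D164A/fl (SE 0.32, adjusted p = 4.98e-10) on the log2 scale. In ΔC/- it was at a log2 difference of -0.98 in limma, under the fold threshold (adjusted p = 0.013), and at -4.44 in edgeR on whole reads (adjusted p = 7.4e-06), a fitted value that depends on the prior count.

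Dll1, Notch1 and Notch3 were also higher in D164A/- than in fl/fl. Notch1 was at 379 to 627 CPM (median 401) in D164A/- and 21.2 to 184 CPM (median 89.2) in fl/fl, without overlap (log2 difference 2.59, SE 0.50, limma adjusted p = 7.88e-05). Dll1 was at 70.9 to 131 CPM (median 85.6) against 22.5 to 36.8 CPM (median 28.4), a difference of 1.64 (SE 0.31, adjusted p = 6.01e-05). Notch3 was at 24.3 to 39.4 CPM (median 33.1) against 1.07 to 9.7 CPM (median 2.76), a difference of 3.05 (SE 0.43, adjusted p = 6.34e-07). Within the experiments Notch1 differed by 1.41 (TGFβ experiment, adjusted p = 0.16) and 3.78 (Wnt3a experiment), and passed only in the latter. Notch3 was also higher in D164A/fl (6.12 to 44 CPM, 2.21, adjusted p = 0.00013) and dm/fl (9.1 to 90.5 CPM, 2.94, adjusted p = 1.52e-06). Without dm/fl untreated replicate 1 of the Wnt3a experiment, 1 of the libraries that stood apart, the dm/fl difference was 2.15.

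Jag1 and Jag2 were low in D164A/-. Jag1 was at 7.14 to 20.6 CPM there and 41.3 to 175 CPM in fl/fl (log2 difference -2.40, SE 0.39, limma adjusted p = 6.16e-06), and it was also low in ΔC/fl (10.9 to 23.2 CPM, -2.06, adjusted p = 8.12e-05) and dm/fl (14.5 to 16.1 CPM, -2.21, adjusted p = 2.75e-05). The order ran from D164A/fl (166 ± 88.6 CPM) through fl/fl, ΔC/- and dm/- (54.2 ± 19.4) to ΔC/fl (17.5 ± 5.10), dm/fl and D164A/- (14.1 ± 5.89), and the neighbors dm/- and ΔC/fl were the only ones that did not overlap. Jag2 was at 13.2 to 66.4 CPM in fl/fl and lower in the 5 lines other than D164A/fl. The largest difference was in dm/fl (0.0615 to 1.54 CPM, -4.41, SE 0.47, adjusted p = 3.75e-09) and the smallest in ΔC/fl (5.25 to 10.4 CPM, -1.90, SE 0.47, adjusted p = 0.0021), the latter being -2.72 in the TGFβ and -1.07 in the Wnt3a experiment (adjusted p = 0.28).

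Notch4 was higher in untreated ΔC/-, ΔC/fl and dm/fl than in fl/fl (0.347 to 0.537 CPM). It was at 2.07 to 6.94 CPM in ΔC/- (log2 difference 1.60, SE 0.37, limma adjusted p = 0.000688) and 1.72 to 4.22 CPM in ΔC/fl (1.5, SE 0.37, adjusted p = 0.00172), the latter being 1.34 in the TGFβ (adjusted p = 0.063) and 1.66 in the Wnt3a experiment. In dm/fl it was at 1.12 to 10 CPM (1.32, SE 0.37, adjusted p = 0.00468), and this call was lost within the TGFβ experiment (0.70) and without untreated replicate 1 of the Wnt3a experiment (0.82, adjusted p = 0.093). With the GC trend of each library removed it was also lost in dm/fl (0.62) and in ΔC/fl (0.96). The 3 lines with fl/fl or D164A alleles (0.142 to 0.613 CPM) lay below the 4 lines with ΔC or dm alleles (0.636 to 10 CPM). This grouping was read from the levels themselves, and the share of all genes split this way was not counted. Its nearest samples were a D164A/fl library at 17 reads and a dm/- library at 18 reads, and Notch4 in dm/- did not pass against fl/fl.

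Dll1 was lowest in the ΔC lines, at 5.08 to 11.1 CPM in ΔC/fl (log2 difference to fl/fl -1.65, SE 0.31, limma adjusted p = 7.17e-05) and 7.53 to 15.4 CPM in ΔC/- (-1.36, SE 0.31, adjusted p = 0.000595). The ΔC/- difference was -1.78 in the TGFβ and -0.94 in the Wnt3a experiment (adjusted p = 0.13). Hes1 had no difference past the fold threshold. Its highest level was in D164A/- (47.0 ± 6.63 CPM, 0.77, adjusted p = 0.003) and its lowest in ΔC/fl (13.5 ± 0.389 CPM, -0.95, adjusted p = 0.0004), the latter being -1.14 without untreated replicate 2 of fl/fl from the Wnt3a experiment and -1.13 without that of the TGFβ experiment. In dm/fl, the Hes1 difference was -0.92, and -1.05 without dm/fl untreated replicate 1 of the Wnt3a experiment. It was also past the fold threshold without untreated replicate 2 of fl/fl from the Wnt3a (-1.107) or the TGFβ experiment (-1.105). Notch2 was within the threshold in every line, from -0.65 in D164A/- to 0.76 in dm/fl, where it was 1.04 without untreated replicate 2 of the Wnt3a experiment (adjusted p = 2.58e-05).

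**Figure D5:**
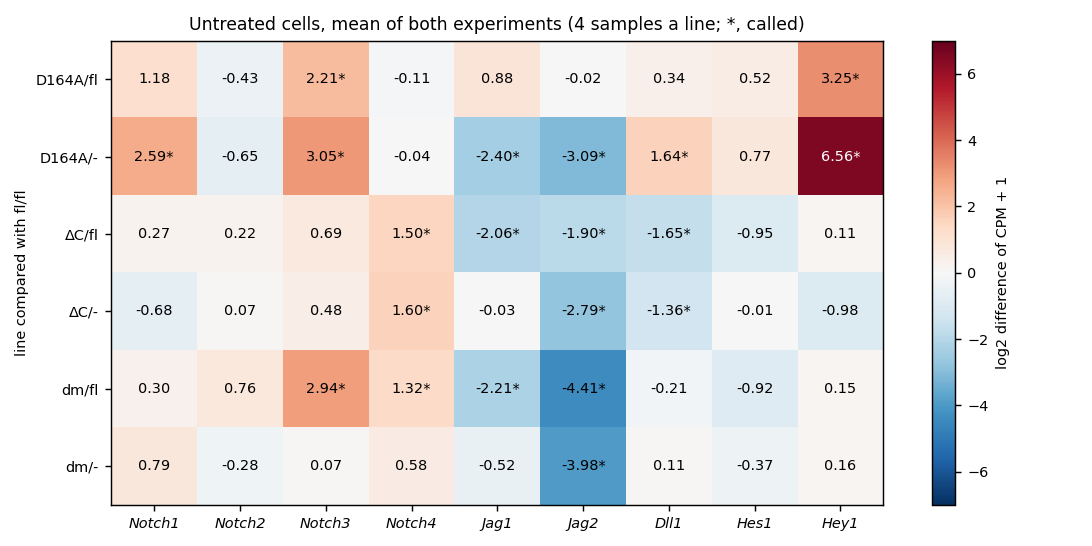
Heat map of the log2 difference of CPM + 1 between each untreated line (rows) and fl/fl for the 9 genes (columns), as the mean of both experiments with 4 samples a line and stars where the thresholds were passed. Hey1 in D164A/- (6.56) is the highest cell and Jag2 in dm/fl (-4.41) the lowest, and the Jag2 column is starred in every row other than D164A/fl.

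Untreated D164A/fl cells were compared between the experiments. In the TGFβ experiment Hey1 was at 3.43 and 7.33 CPM, Dll1 at 16.4 and 25.2 CPM and Notch1 at 63.6 and 127 CPM. In the Wnt3a experiment they were at 47.1 and 83.5, 44.1 and 93.3, and 194 and 476 CPM. The difference from fl/fl was larger in the Wnt3a experiment for 5 members (interaction in limma, a comparison added after the values were seen, where 6.05% of genes passed): Notch1 by 3.83 (SE 0.996, adjusted p = 0.0142), Hey1 by 3.82 (SE 0.64, adjusted p = 0.000168), Notch3 by 3.52 (SE 0.87, adjusted p = 0.00963), Dll1 by 2.13 (SE 0.62, adjusted p = 0.0313) and Hes1 by 1.36 (SE 0.41, adjusted p = 0.0368). Between the experiments directly, untreated D164A/fl differed for Hey1 (3.39, adjusted p = 2.99e-06) and Dll1 (1.61, adjusted p = 0.0118), but Notch1 (1.75, adjusted p = 0.105), Notch3 (1.65, adjusted p = 0.075) and Hes1 (0.55, adjusted p = 0.243) did not pass. The outcome for Notch1 and Notch3 depended on the fit. Without the 2 libraries of highest GC correlation, which were of dm lines, both came under the adjusted p threshold at the same sizes. Untreated fl/fl moved the other way without passing in either fit, by -2.09 for Notch1, -1.86 for Notch3 and -0.82 for Hes1. As point estimates these were larger than the change in D164A/fl itself for these 3 genes. The SE was 0.70, 0.61 and 0.29 in either line, and which line moved more was not tested. The GC correlation of untreated fl/fl was -0.54 and -0.62 in the Wnt3a and 0.11 and -0.04 in the TGFβ experiment. That of untreated D164A/fl was -0.45 and 0.55, and -0.37 and -0.26, in the same order. The interaction was not fitted with the GC trend removed, and the part of GC content in it was not tested. Within the TGFβ experiment alone, D164A/fl differed from fl/fl in Hey1 by 1.34 (adjusted p = 0.032) and in Notch3 by 0.45, and within the Wnt3a experiment by 5.16 and 3.96.

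Deletion of the floxed allele was followed within each mutant, where 13.3% of all gene tests passed. Of the members, 5 passed between D164A/- and D164A/fl (9.45% of genes), 2 between ΔC/- and ΔC/fl (12.2%) and 3 between dm/- and dm/fl (18.3%). In the D164A pair Hey1 was higher in the deleted line by 3.31 (SE 0.32, limma adjusted p = 1.09e-09) and Dll1 by 1.30 (SE 0.31, adjusted p = 0.00208), whereas Jag1 differed by -3.29 (SE 0.39, adjusted p = 7.24e-08) and Jag2 by -3.07 (SE 0.47, adjusted p = 8.21e-06). Within the TGFβ experiment Hey1 differed by 5.45 and Dll1 by 2.32, and within the Wnt3a experiment by 1.17 (adjusted p = 0.22) and 0.28. The difference in Notch1 (1.41, adjusted p = 0.0432) was lost without any 1 of 6 libraries, the untreated replicates of D164A/- and replicate 1 of D164A/fl in both experiments (1.09 to 1.59, 0.0558 to 0.197).

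Jag1 had the opposite sign in the other pairs. It was higher in the deleted line by 2.03 for ΔC (SE 0.39, limma adjusted p = 0.000133) and by 1.68 for dm (SE 0.39, adjusted p = 0.000841), the latter being 2.12 in the TGFβ and 1.25 in the Wnt3a experiment (adjusted p = 0.11). In the ΔC pair Hey1 was lower in the deleted line (-1.09, SE 0.32, adjusted p = 0.0102), where it was at 1 to 2 reads a library. In the dm pair Notch3 was lower (-2.86, SE 0.43, adjusted p = 2.45e-06), as was Notch2 (-1.04, SE 0.19, adjusted p = 6.83e-05). The Notch2 difference fell under the fold threshold without any 1 of 3 libraries, dm/fl replicate 1 (-0.76) or dm/- replicate 1 (-0.96) of the Wnt3a experiment or dm/- replicate 2 of the TGFβ experiment (-0.996).

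Other genes of the Notch pathway were read from a fixed list. Of its 51 genes, 49 were in the table and 42 passed the filter. Over the 7 lines together, 1 of 42 passed in the mean TGFβ response (4.88% of genes). It was Furin, a protease that cleaves Notch receptors on their way to the surface, with 196 and 189 CPM without and 659.7 and 660.1 CPM with TGFβ in fl/fl (mean log2 fold change 1.07, SE 0.28, limma adjusted p = 0.00412). The median of the 42 genes in that response was 0.09, against -0.07 for the 9 members and -0.02 for all tested genes. In the single lines 8 of 294 tests passed (33 at an unadjusted p under 0.05), where 6.35% of all gene tests did. The count was 10 with edgeR, 4 with only the samples compared, 15 with a replicate block, 19 with the GC trend removed and 24 with both. The genes, named after their values were seen, were Dll4 (1.06), Dtx4 (1.19) and Maml2 (1.87) in fl/fl, Dtx4 (1.29) and Neurl1b (-2.08) in ΔC/fl, Dlk2 (-2.81) in dm/fl, and Dtx3l (1.34) and Maml2 (1.66) in dm/-. Dll4 is another Delta-type ligand, Maml2 a co-activator and Dtx4 a ubiquitin ligase of the pathway. The responses of Dll4 (limma F test, adjusted p = 0.00302) and Maml2 (0.0211) differed among lines. Dll4 was low throughout, with a mean of 0.351 CPM over the 56 samples and at most 2.13 CPM. After Wnt3a 0 of 294 tests passed with limma (18 at an unadjusted p under 0.05) and 0 with edgeR (17), where 0.862% of all gene tests did, and 1 passed with the replicate block and the GC trend removed. Of the targets, Nrarp, which limits Notch signaling and was also chosen after its values were seen, was at 8.37 and 8.31 CPM without and 8.61 and 10.1 CPM with TGFβ in fl/fl. In untreated cells Nrarp was lower than fl/fl in dm/fl (-1.09) and higher in dm/- (1.03), and it was higher in dm/- than in dm/fl (2.12, limma adjusted p = 6.18e-07). In untreated cells 5 (D164A/fl, where 16.2% of all genes passed) to 9 (dm/-, 17.9%) of the 42 passed against fl/fl, near those shares. In D164A/fl these were Dtx2, Maml2 and Maml3, which were higher, and Poglut1 and Dtx4, which were lower, again named after their values were seen.

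The members also differed in which genes they resembled across the 28 condition means, given as a description over conditions that share lines. Among the members, Hey1 correlated with Notch1 (r = 0.812) and Dll1 (r = 0.789), Notch1 with Dll1 (0.754) and Notch3 (0.710), and Notch4 with Jag1 (0.521), whereas Hey1 and Notch2 were inversely related (-0.623). Among all tested genes Hey1 was most like C9 (0.973), Oxtr and Col9a1 (both 0.963). Notch1 was most like Trib2 (0.914), Notch3 like Acss1 (0.907), Dll1 like Exoc3l4 (0.894), Jag2 like Cog8 (0.889), Jag1 like Atp6v1g1 (0.877), Notch4 like Adgra1 (0.849), Notch2 like 2310022B05Rik (0.831) and Hes1 like Marcksl1 (0.830).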

How the data were processed

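Poly(A) RNA from 56 samples of 7 mouse mammary tumor cell lines was sequenced from stranded libraries as single-end reads. The authors aligned reads with STAR to mm10, kept unique hits, and counted reads over RefSeq exons with QuasR. The deposited signal is a normalized read count per gene (called CPM here) whose columns sum to 877497 to 1235584. Whole reads were recovered for 100% of the values (tolerance 0.001).

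Values were used as log2(CPM + 1) in limma 3.58.1 (R 4.3.3) with 1 mean per condition over all 28 conditions and moderated variance, for the 13754 genes that reached 1 CPM in 2 samples or more. Adjusted p-values (Benjamini-Hochberg) cover all tested genes of a comparison. Contrasts were treated minus untreated per line and as the mean of the lines, untreated lines against fl/fl and deleted against floxed. F tests compared responses among lines. The scripts were tested on simulated data. Alternatives were edgeR 4.0.16 on whole reads (1283 genes called in the mean TGFβ response), pseudocount 0.1, no filter, median-of-ratios scaling, only the samples compared, GC trend removal (lowess span 0.3), a replicate block and leaving out each library. Crossed replicate numbers, leaving out 2 libraries, and the interaction of experiments were added after the data were seen.

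The members, pathway list and marker lists were chosen with earlier results of these data known. Named genes were the 9 members, other pathway genes among the 3 largest passing increases and decreases in a mean response or passing in 4 lines, the 3 genes most correlated with each member, and Axin2, Nkd1, Lef1, Smad7 and Skil among the treatment checks. Other pathway genes are named outside this rule, after their values were seen, and the text says so. Some checks and markers are not reported here. Nkd1 did not pass the filter. The labels' treatment notes name lines of another genotype, and their doses and times are used as given. No column lacked a sample (0 unmapped). Genes without a symbol (53) stayed in the fit. Gene positions and promoter sequences are from RefSeq on GRCm38.p6. Python 3.11.15, pandas 2.3.3 and matplotlib 3.10.9 were used.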

Additional observations from a re-analysis of the deposited data

Results flagged for a closer look

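Responses of single genes that differed between lines or experiments are listed with their values, and no cause was tested. The response to TGFβ differed among the 7 lines for Jag1 (limma F test, adjusted p = 0.00164), Notch2 (0.0357), Notch4 (0.0358) and Notch3 (0.0491). The response to Wnt3a differed among lines for Hey1 (limma F test, adjusted p = 2.26e-05, where 2.39% of genes passed), the lowest log2 fold change being -4.61 in D164A/fl. With edgeR on whole reads the F test of Hey1 did not pass.

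The difference between untreated D164A/fl and fl/fl cells was larger in the Wnt3a than in the TGFβ experiment by 3.83 for Notch1, 3.82 for Hey1, 3.52 for Notch3, 2.13 for Dll1 and 1.36 for Hes1 on the log2 scale (limma interaction), a comparison added after the data were seen. For Notch1 the within-experiment differences were 3.10 and -0.74. Untreated fl/fl itself differed in the Wnt3a experiment by -2.09 for Notch1, -1.86 for Notch3 and -0.82 for Hes1, which did not pass. As point estimates these made up more of the 3 values than D164A/fl did (1.75, 1.65 and 0.55). The SE was 0.70, 0.61 and 0.29 in either line, and which line moved more was not tested. Without the 2 libraries of highest GC correlation, Notch1 and Notch3 in D164A/fl came under the adjusted p threshold at the same sizes, and fl/fl did not. The untreated fl/fl and D164A/fl libraries also differed in GC correlation, and its part in the interaction was not tested.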

How the results depend on the processing

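Of 74 values followed by gene (all that passed and every mean response), 53 kept direction and side of the thresholds in all 56 fits that left out 1 library, 17 changed their call in at least 1 and 4 changed sign in at least 1. Those 4 had no call: the mean response to TGFβ of Dll1 (-0.141 to 0.012) and to Wnt3a of Notch3 (-0.277 to 0.177), Notch4 (-0.072 to 0.214) and Jag2 (-0.299 to 0.026). Notch3 after Wnt3a was 0.16 with the 2 libraries of highest GC correlation left out. The 4 member calls in the mean TGFβ response ranged from 4 to 5 over the alternatives, and the 1 in the mean Wnt3a response was 1 in each. Member calls in the TGFβ lines were 19, 20 with edgeR, 9 with only the samples compared and 16 to 20 without 1 library. In the Wnt3a lines they were 2, 1 with pseudocount 0.1, 1 with edgeR, 0 with limma on only the samples compared (6 of 63 at an unadjusted p under 0.05) and 1 to 5 without 1 library (5 without dm/fl untreated replicate 2, 1 without D164A/- untreated replicate 1 or treated replicate 2). F test calls for TGFβ were 4, 2 without the filter, 7 with only the samples compared and 1 to 4 without 1 library, and for Wnt3a 1, 0 with edgeR and 1 to 2 without 1 library (2 without dm/fl untreated replicate 2). Calls against fl/fl were 20 (20 to 23 without 1 library), and deleted against floxed 10 (9 to 11). Over all genes, calls in the mean response were 671 for TGFβ (1283 with edgeR, 1272 with pseudocount 0.1) and 68 for Wnt3a (121 and 193), and F test calls were 2515 for TGFβ (1504 with edgeR, 5713 with only the samples compared) and 329 for Wnt3a (31 with edgeR, 545 without the filter, 201 with pseudocount 0.1, 178 with only the samples compared). With only the samples compared, calls over all genes went to 0 for TGFβ in D164A/- (559 with the shared spread) and ΔC/fl (1064) and for Wnt3a in 6 lines, fits with 2 samples against 2. The cause of these changes was not tested. Replicate numbers are shared across groups, but deviations of same-numbered samples correlated over 0.1 in 12 of 14 treatment contrasts (up to 0.93) and not in 2, ΔC/- with TGFβ (-0.20) and dm/fl with Wnt3a (-0.07), so they were not treated as pairs. With a replicate block member calls were 24 in the TGFβ lines and 3 in the Wnt3a lines, and F test calls for TGFβ were 7. With the block and the GC trend removed together they were 9, those for Wnt3a were 2, member calls in the TGFβ lines were 28 and member calls in the Wnt3a lines were 4. F test calls over all genes were 4775 for TGFβ and 849 for Wnt3a with the block (7531 and 1822 with the GC trend also removed). The block lost none of the members' calls and added 9: for TGFβ Notch1 in fl/fl, dm/fl and dm/-, Hey1 in D164A/- and Jag2 in ΔC/fl, for Wnt3a Jag2 in D164A/fl, and the F tests for TGFβ of Notch1, Hes1 and Hey1. With the GC trend also removed 21 were added and 2 lost (Notch4 in untreated ΔC/fl and dm/fl). Leaving out 1 library added 18 member calls in at least 1 fit. Crossing the numbers in ΔC/- gave 1364 genes, against 1363 with the block and 901 without it. Depth limits Hey1 in ΔC/-, at 0 to 5 reads a library, and Hey1 (9 libraries) and Jag2 (3) at or under 3 reads.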
